A study of Arabidopsis thaliana with 22 samples.

Results

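The genes of the magnesium branch of chlorophyll synthesis were followed in etiolated Arabidopsis thaliana seedlings moved from darkness into light. The 10 genes were chosen by their locus in the count table: CHLH (AT5G13630), CHLI1 (AT4G18480), CHLI2 (AT5G45930), CHLD (AT1G08520), GUN4 (AT3G59400), CHLM (AT4G25080), CRD1 (AT3G56940), DVR (AT5G18660), CHLG (AT3G51820) and CAO (AT1G44446). They are 10 of the 33602 genes in the table, and all 10 were among the 23011 that passed the filter on low counts. All seedlings were of the ecotype Col-0, germinated after a pulse of white light, and grew for 6 days in darkness on medium with 2% sucrose. Blue or red light was then given continuously for 1 or 6 h, and white light for 6 h. Each colour had its own dark seedlings, sampled at the start (0 h) or after 6 h more of darkness (6 h dark). The 11 groups held 2 libraries each, of whole seedlings. The labels do not say whether these came from separate cultures, so p values measure only the spread between libraries.

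Chlorophyll is made in plastids from the same precursor as heme, protoporphyrin IX. The magnesium branch begins where magnesium chelatase inserts magnesium into it, and ends with chlorophyll a and b. In darkness an angiosperm seedling stops before chlorophyll, because the reduction of protochlorophyllide needs light, and it keeps the colourless to yellow plastids called etioplasts. CHLH, the porphyrin-binding subunit, CHLI and CHLD, the motor subunits, and GUN4, a regulator that binds porphyrin, act in the chelatase step. CHLM adds a methyl group, CRD1 is a subunit of the cyclase that closes the fifth ring, and DVR reduces a vinyl side chain. CHLG (chlorophyll synthase) attaches the side chain that anchors the pigment in the membrane. CAO carries out the oxidation that leads to chlorophyll b.

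The 12 dark libraries held from 35000731 to 72685876 counts each and the 10 light libraries from 59054903 to 138804638. Dark libraries were sequenced 4 per pool and light libraries 2 per pool, so pool size and light cannot be told apart. Levels are given as CPM, counts scaled to a common normalised library size, and changes as log2 with their standard error (SE). The call threshold was 0.05 on the p value of the edgeR quasi-likelihood test, adjusted over all 23011 genes. In bulk seedlings, fewer cells of a type and less RNA per cell cannot be told apart. Replicate 2 of red 0 h stood apart from its group. It had the lowest level of all 22 libraries for each of the 10 genes, and 5 marker genes of green tissue summed to 968 CPM there, against 2653 CPM in replicate 1 and between 968 and 4992 CPM over the 12 dark libraries. The green tissue markers summed to between 2961 and 6517 CPM at 1 h of light and between 7909 and 17419 CPM at 6 h. A list of 7 heat stress genes summed to between 77.9 and 204 CPM in darkness, 435 and 1792 CPM at 1 h and 258 and 1677 CPM at 6 h. The 8 root markers lay between 297 and 454 CPM in darkness and between 352 and 478 CPM in light, the 3 guard cell markers between 18 and 38.8 CPM and between 11.1 and 26 CPM, and the 10 seed storage markers between 8.20 and 583 CPM and between 5.50 and 841 CPM. Every marker had counts in every library, except that 1 seed storage gene was at 0 in red 0 h replicate 1 and red 6 h dark replicate 1, and 1 heat stress gene in blue 6 h dark replicate 1 and red 6 h dark replicate 2. The part of these markers in the results was not tested.

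The genes are spread over chromosomes 1, 3, 4 and 5 (coordinates are of TAIR10.1, found by locus). CHLH lies at chr5:4387307-4392429 on the minus strand in 5 exons, CHLD at chr1:2696381-2701022 on the plus strand in 15 exons, and GUN4 at chr3:21948501-21949796 on the minus strand in 1 exon. CHLM lies at chr4:12876822-12878703 (plus), CRD1 at chr3:21076505-21078443 (plus), DVR at chr5:6220710-6222300 (minus), CHLG at chr3:19215930-19219128 (minus) and CAO at chr1:16848308-16851271 (minus). No stretch of 50 bases from the exons of any of the 10 genes recurs elsewhere in the genome. The strand setting of the counting is not given in the sources used here, so reads of a gene and of an overlapping partner on the other strand could be counted together. GUN4 shares 946 of its 1296 bases with AT3G59410 on the other strand, whose level stayed between 28.7 and 47.9 CPM in all libraries and whose mean log2 change at 6 h was 0.08 (edgeR adjusted p = 0.408). CRD1 shares 406 bases with its neighbours. CHLI1, CHLI2, CHLD, CHLM and CAO overlap a neighbour by 36 to 136 bases, and CHLH, DVR and CHLG overlap none.

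CHLI1 (chr4:10201672-10203469, minus strand) and CHLI2 (chr5:18627950-18629697, plus strand) encode the same subunit and are the one close pair among the 10. Their coding sequences were identical at 81.8% of 1257 aligned bases. The longest stretch shared by their mRNAs was 44 bases. It is shown with 20 bases on either side, from RefSeq TAIR10.1, because it is where reads of the pair are hardest to tell apart. The 8 bases that differ are in capitals.
CHLI1, mRNA bases 731 to 814: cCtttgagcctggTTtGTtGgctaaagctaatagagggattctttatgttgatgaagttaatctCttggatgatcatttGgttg
CHLI2, mRNA bases 750 to 833: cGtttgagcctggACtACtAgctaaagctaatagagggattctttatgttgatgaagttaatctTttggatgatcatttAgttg
The read length is not given in the sources used here. A read longer than the shared stretch carries at least 1 base that separates the pair.

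The 250 bases before each gene start were searched on both strands for 4 short motifs. The G-box, CACGTG, a sequence bound by bZIP and bHLH factors of the light response, was found in 2 of the 10 genes, CAO and CRD1, and in 6.49% of 27443 Arabidopsis promoters. CCAATC, linked to the GLK factors, was found in 1 gene, GUN4, 13 bases before its start, and in 10.2% of promoters. GATAAG, a motif bound by factors of the GATA family (12.3% of promoters), and CACGCGC, a motif of FHY3 and FAR1 (1.06%), were found in 0 of the 10. The windows with a G-box are shown in lower case with the motif in capitals (TAIR10.1, read 5′ to 3′ on the strand of the gene). CAO holds it at 52 and 32 bases and CRD1 at 52 bases before the start.
CAO, chr1:16851272-16851521 (minus): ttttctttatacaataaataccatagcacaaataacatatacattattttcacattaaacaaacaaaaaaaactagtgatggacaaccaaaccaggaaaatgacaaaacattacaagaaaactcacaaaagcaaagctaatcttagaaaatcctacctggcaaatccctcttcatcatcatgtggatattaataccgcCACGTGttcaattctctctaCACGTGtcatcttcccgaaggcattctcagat
CRD1, chr3:21076255-21076504 (plus): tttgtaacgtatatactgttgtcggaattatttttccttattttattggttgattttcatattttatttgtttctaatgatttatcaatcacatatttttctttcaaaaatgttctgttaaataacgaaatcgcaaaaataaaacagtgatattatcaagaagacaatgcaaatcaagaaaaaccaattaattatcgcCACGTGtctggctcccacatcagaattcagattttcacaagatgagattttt
A match describes these letters and is not a measured binding site.

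In darkness the branch was expressed at very unequal levels. Per kilobase of exon, CRD1 was the highest of the 10 in the blue 6 h dark libraries, at a mean of 211 CPM per kb, followed by CHLH at 85.7, CHLM at 77.6 and CHLD at 62.4. CHLI1 stood at 50.6 CPM per kb, CHLG at 35.8, GUN4 at 24.2, CAO at 22, CHLI2 at 11.6 and DVR at 8.59. CRD1 was also highest in red and white 6 h dark, at 91.9 and 146 CPM per kb, but the order below it differed. In red 6 h dark CHLM at 54.7 and CHLD at 40.6 stood above CHLH at 36.9, and CAO at 15.7 above GUN4 at 10.7. In white 6 h dark CHLM at 67.6 stood above CHLH at 59.0, and CAO at 17.6 above GUN4 at 16.8. The mean of the 4 dark libraries was highest in the blue series, lower in the white series and lowest in the red series for all 10 genes. For CHLH the dark libraries ranged from 301 to 459 CPM in the blue series, from 249 to 313 CPM in the white series and from 82.1 to 267 CPM in the red series. For CHLM they ranged from 129 to 136, from 99.3 to 133 and from 68.0 to 101.4 CPM. Another 6 h of darkness was compared with 0 h over the 3 series to see how the genes moved without light. EdgeR called 0 of the 10 genes, and 0% of all genes, with 769 genes and 0 of the 10 at an unadjusted p under 0.05. Their log2 changes lay between -0.04 for CRD1 and 0.27 for CHLI2 (SE 0.18).

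**Figure D1:**
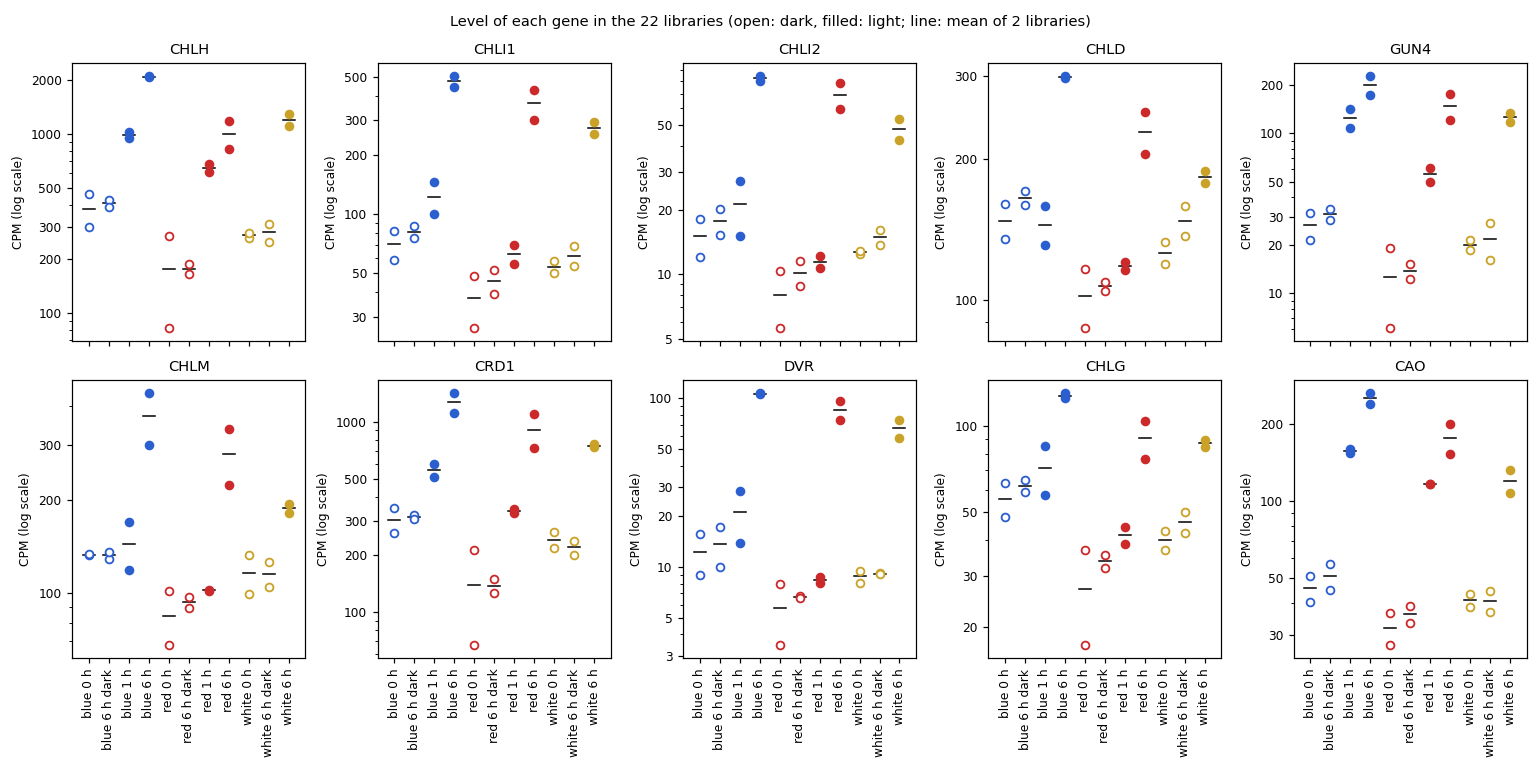
Level of each of the 10 genes in all 22 libraries, in CPM on a log scale, by group on the x axis. Open points are dark libraries, filled points light libraries, and the line is the mean of 2 libraries. The 6 h light libraries lie above the 6 h dark libraries of their own series in every panel, while at 1 h CHLH, GUN4 and CAO stand clear of all dark libraries.

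The first hour of light was compared with 0 h of the same series to find which steps of the branch respond early. CHLH, GUN4 and CAO rose in blue light, and the same 3 rose in red light. The 3 of 10 compare with 5.35% of all genes called higher in blue light and 3.72% in red light. The other 7 did not pass in either colour. Over all 10 the median log2 change was 0.79 in blue and 0.69 in red light, against 0.02 and -1.62e-03 over all genes.

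CAO had the smallest SE of these 3 genes. It stood at 51.4 and 40.5 CPM at blue 0 h and at 159.9 and 154 CPM after 1 h of blue light. In the red series it stood at 36.7 and 27.4 CPM at 0 h and at 117 and 117 CPM after 1 h. All 4 light libraries were therefore above all 12 dark libraries, whose highest value was 56.8 CPM. The change was 3.42-fold in blue light (log2 1.77, SE 0.18, edgeR adjusted p = 1.76e-05) and 3.65-fold in red light (log2 1.87, SE 0.18, adjusted p = 2.02e-05). Both calls held without each library in turn, and in the fit with only the libraries compared.

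GUN4 stood at 32.0 and 21.6 CPM at blue 0 h and at 143 and 108 CPM after 1 h of blue light. In the red series its libraries held 19.3 and 6.08 CPM at 0 h and 49.8 and 61.2 CPM after 1 h. The light libraries exceeded every dark library, the highest of which held 33.9 CPM. The log2 change was 2.23 in blue light (SE 0.41, edgeR adjusted p = 0.00247) and 2.14 in red light (SE 0.41, adjusted p = 0.00541). Without red 0 h replicate 2 the red value was 1.52, and without replicate 1 it was 3.19, both still called. With only the red 0 h and 1 h libraries in the fit it was not called (adjusted p = 0.158).

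CHLH stood at 459 and 301 CPM at blue 0 h and at 1017 and 946 CPM after 1 h of blue light. Its red libraries held 267 and 82.1 CPM at 0 h and 607 and 677 CPM after 1 h. Here too the light libraries lay above all dark ones. The log2 change was 1.37 in blue light (SE 0.37, edgeR adjusted p = 0.0324) and 1.88 in red light (SE 0.38, adjusted p = 0.00713). The blue call was lost without each of the 4 libraries in turn, at adjusted p = 0.057 to 0.256, and at 0.0511 with only these libraries in the fit. The red change was 1.27 without red 0 h replicate 2 and 2.97 without replicate 1, and the call was lost without red 1 h replicate 2 (adjusted p = 0.0555) and with only the libraries compared (0.225).

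CRD1 came next and did not pass, at a log2 change of 0.86 in blue light (SE 0.36, edgeR adjusted p = 0.201) and 1.29 in red light (SE 0.36, adjusted p = 0.0633). It was called in red light by DESeq2 (adjusted p = 0.00561) and without red 0 h replicate 1, where the count rose to 6 with CHLI1 and CHLG. CHLI1 had 0.81 and 0.76 in the 2 colours (adjusted p = 0.101 and 0.185), and its blue change was called without blue 1 h replicate 2. The changes of DVR were 0.78 and 0.58, of CHLI2 0.49 and 0.53, and of CHLG 0.36 and 0.63. CHLM and CHLD had the smallest ones, 0.12 and 0.27 for CHLM and -0.03 and 0.21 for CHLD. CHLD held 159.8 and 135 CPM at blue 0 h against 158 and 131 CPM after 1 h, groups that overlap. By libraries alone, both light libraries exceeded both dark ones in 5 of the 10 genes in blue light and 9 of the 10 in red light, as did 22.9% and 23.3% of all genes.

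At 6 h, light was compared with 6 h dark of the same series, which asks how far the branch as a whole responds. All 10 genes rose in the mean over the 3 colours, against 32.5% of all genes called higher and 25.9% called lower. The median log2 change of the 10 was 2.20, against 0.02 over all genes. In blue light 10 of 10 rose (22.8% of all genes), in red light 10 of 10 (17.6%) and in white light 9 of 10 (23.2%), the exception being CHLD. In each colour both light libraries exceeded both dark libraries in all 10 genes, as in 36.9%, 34.8% and 39.7% of all genes. The sizes ran from 0.75 for CHLD to 3.17 for DVR in the mean. Leaving out each library in turn left all 10 called in the mean and in red light. In the mean, higher genes made up 55.6% of all calls in the main fit and 51.9% with another scaling (RLE size factors). With library totals in place of normalised totals, the median of all genes moved to -0.10, and that share to 41.0%. The 10 genes were still called, at 0.63 to 3.05.

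**Figure D2:**
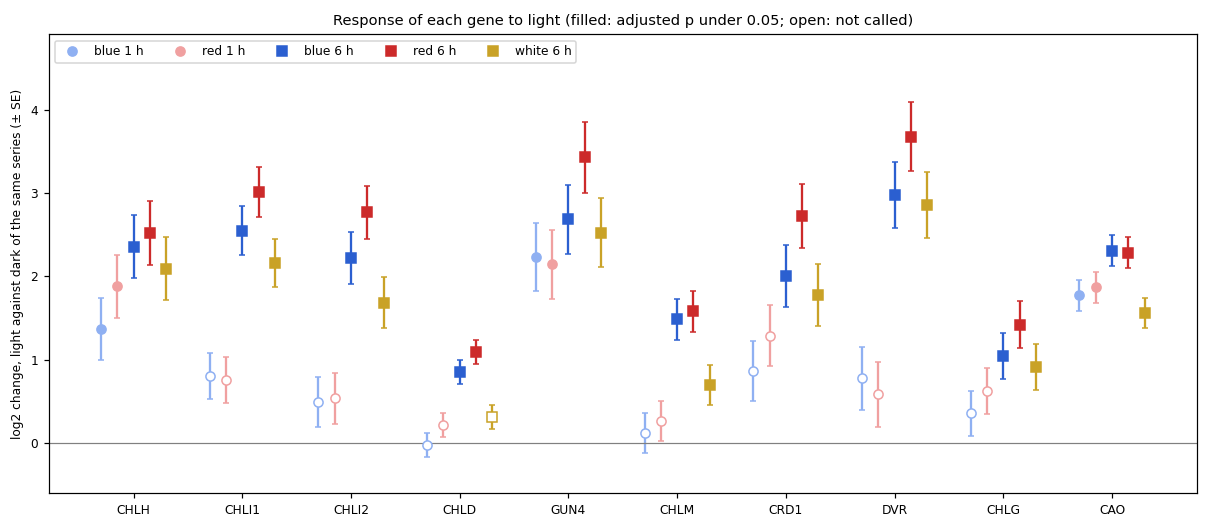
Log2 change of each gene in light, relative to darkness in the same series, with the standard error, for 1 h (circles) and 6 h (squares). Filled symbols passed an adjusted p of 0.05 in edgeR. At 1 h only CHLH, GUN4 and CAO are filled, and at 6 h only CHLD in white light is open.

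DVR, the divinyl reductase, changed most. It held 17.3 and 10.01 CPM in blue 6 h dark and 106 and 108 CPM after 6 h of blue light. In the red series 6.75 and 6.59 CPM stood against 74.6 and 95.9 CPM, and in the white series 9.19 and 9.17 CPM against 75.0 and 58.0 CPM. The lowest light library was thus several times above the highest dark one. The mean change was 8.99-fold (log2 3.17, SE 0.23, edgeR adjusted p = 3.64e-08), from 2.86 in white light to 3.68 in red light.

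GUN4 followed at a mean log2 change of 2.88 (SE 0.24, edgeR adjusted p = 1.49e-07), or 7.34-fold. Its dark libraries at 6 h held between 12.4 and 33.9 CPM and its light libraries between 118 and 230 CPM. CHLI1 held 86.9 and 75.7 CPM in blue 6 h dark and 445 and 506 CPM in blue light, 39.2 and 51.7 against 303 and 430 CPM in the red series, and 54.5 and 68.5 against 294 and 255 CPM in the white series. Light and dark libraries of CHLI1 did not overlap within or between series at 6 h. Its mean change was 5.94-fold (log2 2.57, SE 0.17, adjusted p = 1.22e-08). CHLI2, the second copy, rose by 2.22 (SE 0.18, adjusted p = 9.56e-08), from between 8.76 and 20.3 CPM to between 42.4 and 84.9 CPM.

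CHLH rose 4.99-fold in the mean (log2 2.32, SE 0.22, edgeR adjusted p = 5.11e-07). It held 424 and 391 CPM in blue 6 h dark and 2110 and 2063 CPM in blue light, 164 and 186 against 821 and 1184 CPM in the red series, and 249 and 313 against 1103 and 1287 CPM in the white series. Per kilobase it was second to CRD1 in blue light, at 439 against 845 CPM per kb, and in white light, at 251 against 500. In red light CHLH at 211 CPM per kb stood below CRD1 at 608 and CHLI1 at 228. CRD1 rose 4.49-fold (log2 2.17, SE 0.22, adjusted p = 8.22e-07), with 126 to 325 CPM in darkness and 724 to 1413 CPM in light. CAO rose 4.14-fold (log2 2.05, SE 0.11, adjusted p = 1.54e-09), with 33.6 to 56.8 CPM in darkness and 108 to 265 CPM in light.

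The remaining genes changed least. CHLM, the methyltransferase, rose by a mean log2 of 1.26 (SE 0.14, edgeR adjusted p = 2.64e-06) and CHLG by 1.12 (SE 0.16, adjusted p = 2.64e-05). In white light CHLM had 0.70 (adjusted p = 0.0302), a call lost without each of the 4 libraries (adjusted p = 0.0565 to 0.19) and with library totals (0.0581). CHLG in white light had 0.91, and was not called without white 6 h dark replicate 1 (adjusted p = 0.114) or white 6 h replicate 1 (0.07). In blue light CHLG was not called without blue 6 h dark replicate 2 (0.0594), which left 9 of 10. CHLD had the smallest mean change, 1.68-fold (log2 0.75, SE 0.08, adjusted p = 2.45e-06). It held 170.3 and 159 CPM against 296 and 299.9 CPM in the blue series and 105 and 109 against 205 and 251 CPM in the red series. In the white series 137 and 159 CPM stood against 188 and 178 CPM, groups that do not overlap but did not pass (log2 0.31, SE 0.14, adjusted p = 0.0987).

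The 6 h response was then set against the 1 h response of the same colour, each against its own dark libraries, to see which genes had a later part of the response. CHLI1, CHLI2, CHLD, CHLM and DVR had a larger response at 6 h than at 1 h, in blue light (5 of 10, against 9.15% of all genes) and in red light (5 of 10, against 5.82%). The difference was largest for DVR, at a log2 of 2.20 in blue (SE 0.53, edgeR adjusted p = 0.0129) and 3.09 in red light (SE 0.55, adjusted p = 0.00412). CHLI1 had 1.74 (SE 0.39, adjusted p = 0.00857) and 2.25 (SE 0.39, adjusted p = 0.00374), and CHLI2 had 1.73 and 2.23. For CHLM the differences were 1.37 and 1.31 and for CHLD 0.88 and 0.87. The 3 genes called at 1 h did not pass. CHLH had 0.99 and 0.63 (SE 0.52 and 0.51), GUN4 0.46 and 1.28 (SE 0.55 and 0.56), and CAO 0.54 and 0.42 (SE 0.25 in both colours). CRD1 had 1.14 and 1.44 and CHLG 0.69 and 0.80, also without passing. The 3 genes were picked for a high 1 h response, which is subtracted here, so not passing does not show that a later part was absent. In red light GUN4 at 1.28 was near CHLM at 1.31, whose SE was smaller (0.34).

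These calls varied with single libraries. In blue light the count was 2 without blue 0 h replicate 1 (CHLI1 and CHLM), 3 without blue 6 h dark replicate 2, and CHLI1 alone held in all 8 such fits. In red light CHLI1, CHLI2 and DVR held in all 8. The count there was 9 without red 0 h replicate 2, with CAO the one left out, and 3 without red 0 h replicate 1, red 6 h dark replicate 1, red 1 h replicate 1 or red 6 h replicate 2.

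**Figure D3:**
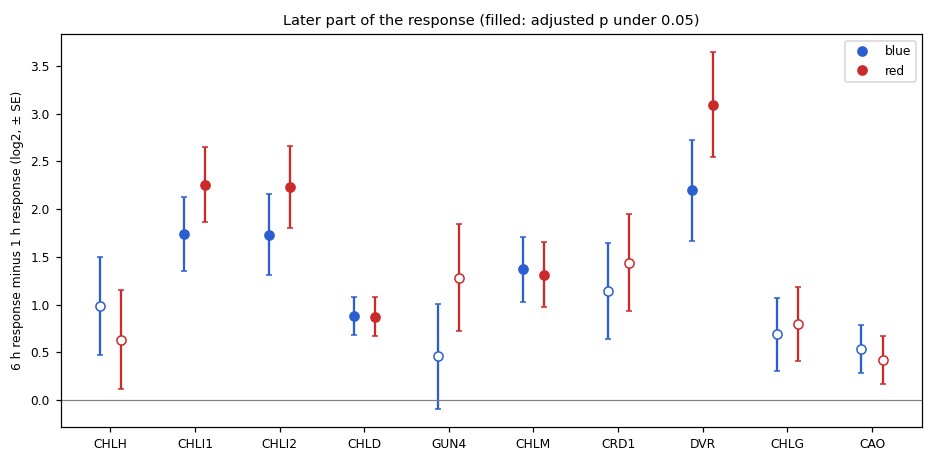
Log2 response at 6 h minus log2 response at 1 h for each gene, with its standard error, in blue and red light. Filled points passed an adjusted p of 0.05 in edgeR. CHLI1, CHLI2, CHLD, CHLM and DVR are filled in both colours, and CAO is open in both, at 0.54 and 0.42.

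The colours were compared through the difference between their responses. EdgeR called 0 of the 10 genes between blue and red light at 1 h (0% of all genes, with 1415 genes and 0 of the 10 at an unadjusted p under 0.05), and DESeq2 also called 0 of the 10. The differences lay between -0.51 for CHLH (SE 0.51) and 0.19 for DVR (SE 0.54), so a difference of either size lies within about 1 SE of 0. At 6 h 0 of the 10 differed between blue and red light by either tool (0.0956% of all genes by edgeR). By edgeR 1460 genes and 0 of the 10 were at an unadjusted p under 0.05. The differences ran from -0.74 for GUN4 to 0.02 for CAO, with a median of -0.42 against 0.01 over all genes. Between blue and white light edgeR and DESeq2 again called 0 (0.0608% of all genes), with 3 of the 10 at an unadjusted p under 0.05 by edgeR. CHLM had 0.78 (SE 0.34), CAO 0.75 (SE 0.25) and CHLD 0.55 (SE 0.20). The differences of the 10 lay between 0.12 for DVR and 0.78 for CHLM, with a median of 0.33 against 0.04 over all genes.

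Between red and white light at 6 h edgeR called 0 of the 10 (2.72% of all genes), with 5 at an unadjusted p under 0.05. All 10 differences were above 0, from 0.43 for CHLH to 1.09 for CHLI2, with a median of 0.84 against 0.04 over all genes. Between blue and white light all 10 were above 0 too. The genes were measured in the same libraries, so a shared direction is not 10 separate results. CHLD was nearest to a call, at 0.78 (SE 0.20, edgeR adjusted p = 0.0557). It was called by DESeq2 (adjusted p = 0.0101), with the replicate number as a block (0.0405), with library totals (0.0418), with only the libraries compared (0.0491) and without red 6 h replicate 1. The level itself at 6 h was highest in blue light for all 10 genes, a series whose dark level was also the highest.

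Ratios of 2 genes within a library do not depend on its scaling, and 4 were taken from the raw counts at 6 h. They were tested by an exact two-sided permutation within series, whose smallest possible p is 0.00926. CHLI2 counts were 0.201 to 0.25 of CHLI1 counts in the 6 dark libraries and 0.158 to 0.197 in the 6 light libraries. The ranges do not overlap, and the log2 ratio was lower by 0.34 in light (log2 difference -0.34, exact adjusted p = 0.0123 over the 4 ratios). CHLD fell relative to CHLH in all 3 series, from ratios of 0.401 to 0.638 in darkness to 0.138 to 0.249 in light (log2 difference -1.57, exact adjusted p = 0.0123). Per kilobase of exon these are 0.722 to 1.15 and 0.248 to 0.449. CAO counts were 0.70 to 1.10 of CHLG counts in darkness and 1.21 to 2.04 in light, a log2 difference of 0.93 (exact adjusted p = 0.0123). With the median over the 6 pairs of same-numbered libraries instead, the exact adjusted p was 0.125 for each of these 3. With 6 pairs, sign changes of a median cannot give a p below 0.125, so none could pass and this version decides nothing. CHLI1 to CHLH had a log2 difference of 0.26 and did not pass (exact adjusted p = 0.0648), though it did without blue 6 h replicate 1 (0.0463) and without white 6 h replicate 2 (0.00926).

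At 1 h the same ratios are given as values, since an exact permutation test of 36 arrangements cannot give a p below 0.0556. CHLI1 to CHLH stood at log2 -2.80 and -3.25 after 1 h of blue light, below the -2.48 and -2.37 of blue 0 h. After 1 h of red light it stood at -3.45 and -3.28, below the -2.47 and -1.64 of red 0 h. At 6 h it had returned to -2.25 and -2.03 in blue light and reached -1.44 and -1.46 in red light. The ratio was thus lowest at 1 h, when CHLH was called and CHLI1 was not. CAO to CHLG changed by 1.44 in blue and 1.16 in red light at 1 h, against 1.27 and 0.87 at 6 h in these series.

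**Figure D4:**
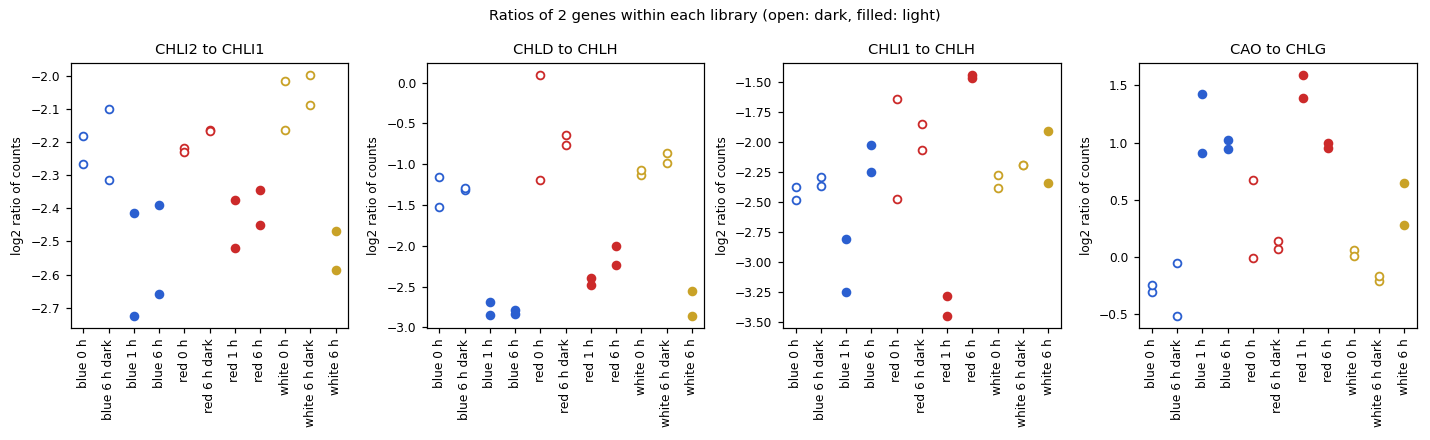
Log2 ratio of raw counts for 4 pairs of genes in each library, by group, with open points for dark and filled points for light libraries. CHLI2 to CHLI1 and CHLD to CHLH are lower in every 6 h light library than in every 6 h dark library, and CAO to CHLG is higher. CHLI1 to CHLH is lowest at 1 h.

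Over all 22 libraries the 10 profiles were compared by the root mean square difference of their centred log2 levels, as a description. CHLI1 and CHLI2 were the closest pair, at 0.20, followed by CHLD and CHLM at 0.24, CHLM and CHLG at 0.26, and CHLH and CRD1 at 0.27. CHLD and GUN4 were farthest apart, at 1.13. CRD1 was the gene nearest to the mean profile of the 10, at 0.19. Among 13097 other genes with at least 10 CPM, whose median difference from that mean profile was 1.02, the 5 nearest were SEP1 (AT4G34190, a stress-enhanced protein of the light-harvesting family) at 0.14, AT4G13500 at 0.14, AT5G38520 at 0.15, PSY (AT5G17230, phytoene synthase, the entry enzyme of carotenoid synthesis) at 0.17 and AT2G35260 at 0.17. Their mean log2 changes at 6 h lay between 1.95 and 2.10.

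The steps before the branch moved with it in part. The counts of the neighbouring lists in the mean at 6 h are to be read against 32.5% of all genes called higher and 25.9% called lower. Of 15 genes from aminolevulinate to protoporphyrin, 10 rose and 3 fell, the latter a smaller share than that of all genes, with a median log2 change of 0.83, against 2.20 for the 10 genes of the branch. HEMA1, glutamyl-tRNA reductase, had risen already at 1 h of blue light (log2 0.71, SE 0.18, edgeR adjusted p = 0.0265). It was the 1 gene of the 15 called there, a share near the 5.35% of all genes called higher. In red light at 1 h HEMA1 had 0.45 (edgeR adjusted p = 0.25), and 0 of the 15 were called, against 3.72% of all genes called higher. HEME1, uroporphyrinogen decarboxylase, rose by 2.05 at 6 h. The 3 that fell were HEMA2, HEMB2 and HEMF2, named after their values were seen, and HEMB2 was not called without 4 of the 12 libraries. In the competing heme branch 4 of 5 measured genes rose and 0 fell, with FC2, a ferrochelatase, at 1.89 and HO2, a heme oxygenase, at 1.34, and 2 of the 7 listed genes did not pass the filter.

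Protochlorophyllide reduction, the light-dependent step inside the pathway, held genes that moved in opposite directions. PORC, the reductase of green tissue, rose by 2.52 (SE 0.19, edgeR adjusted p = 4.10e-08). PORA, the reductase of etiolated seedlings, was lower by a log2 of -3.84 (SE 0.53, adjusted p = 2.20e-05), and by -4.79 without white 6 h replicate 2. By colour PORA had -5.18 in blue light (SE 0.98, edgeR adjusted p = 0.000833, called) and was called lower in white light. In red light it had -2.35 and was not called (SE 0.86, edgeR adjusted p = 0.0571). PORB had -0.63 and did not pass (adjusted p = 0.0741), although it did without blue 6 h dark replicate 2 or with library totals. Its colours went opposite ways, at -1.50 in white light (SE 0.51, edgeR adjusted p = 0.0277, called), -1.01 in blue light and 0.63 in red light, the last 2 not called. CHLP, which makes the phytol side chain that CHLG attaches, had -0.34 and did not pass (adjusted p = 0.154). Its list of 7 held 3 genes that rose and 2 that fell, shares near the 32.5% and 25.9% of all genes, with YCF54, a partner of the cyclase, at 1.58 and HCAR, a reductase of the chlorophyll cycle, at -0.83.

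Of 12 regulators of the pathway, 8 rose and 2 fell in the mean at 6 h (32.5% and 25.9% of all genes), and between 6 and 9 rose under other scalings or without single libraries. CGA1, a GATA factor, had a mean log2 change of 5.79 (SE 0.29, edgeR adjusted p = 1.28e-09), from 0.22 ± 0.14 to 17.1 ± 1.15 CPM (SD, n = 2) in blue light and from 0.10 ± 0.01 to 3.83 ± 2.51 CPM in red light. GLUTRBP, which binds glutamyl-tRNA reductase, rose by 1.59. The 2 that fell, a smaller share than that of all genes, were PIF3 and FHY3, named after their values were seen. PIF3 had -0.68 (edgeR adjusted p = 3.16e-05) and FHY3 had -0.12 (adjusted p = 0.0377). Over 14 alternatives FHY3 ran from -0.24 to -0.11, and its call was lost in 9 of them. Among the 8 that rose, GLK1, named after its values were seen, lay at the threshold (log2 0.31, edgeR adjusted p = 0.04999). Its log2 change ran from 0.19 to 0.37, and its call was lost in 11 of the 14. At 1 h 4 of the 12 rose in each colour, against 5.35% of all genes called higher in blue and 3.72% in red light. They were GLK2, GNC, CGA1 and HY5, named after their values were seen. PIF1, also named after its values were seen, fell in blue light (log2 -0.91, edgeR adjusted p = 0.000135). It was the 1 of the 12 called lower there, against 640 of all 23011 genes. In red light PIF1 was not called (log2 0.03). Of 8 genes of chlorophyll breakdown, 5 rose and 0 fell in the mean at 6 h, against the same shares of all genes, with SGRL, a magnesium dechelatase relative, at 3.14 and RCCR, a reductase of the breakdown product, changed 2.82-fold.

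**Figure D5:**
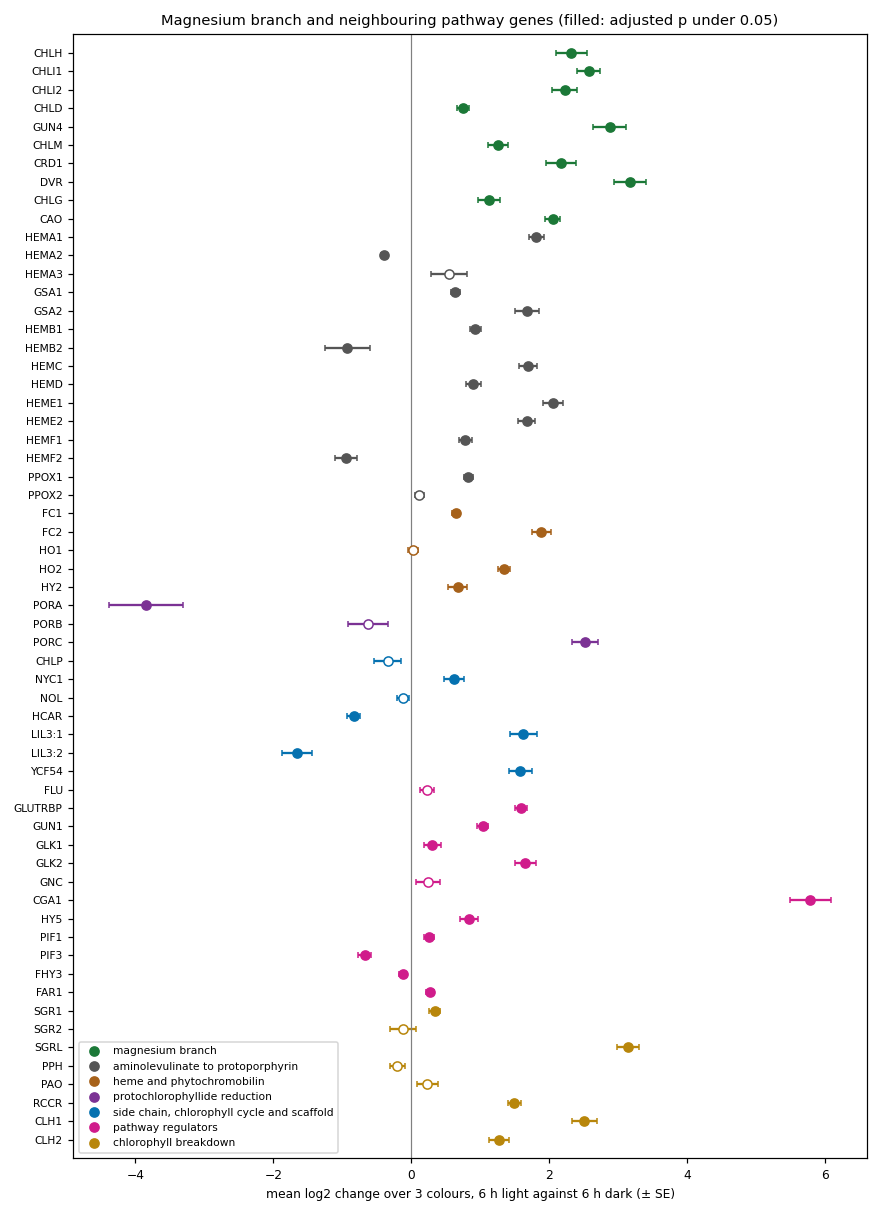
Mean log2 change over the 3 colours at 6 h, with its standard error, for the 10 genes of the branch and the measured genes of 6 neighbouring lists. Filled points passed an adjusted p of 0.05 in edgeR. The 10 genes of the branch lie between 0.75 and 3.17, and PORA at -3.84 and CGA1 at 5.79 are the extremes of the plot.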

How the data were processed

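The table deposited by the authors holds raw read counts per gene for 22 libraries. Per the submitters' processing notes the reads were placed on TAIR 10. For the aligner, the counter and its strand setting, nothing is stated in the labels or headers. Counts were tested with edgeR 4.0.16 (R 4.3.3, limma 3.58.1) by the quasi-likelihood F test, with TMM normalisation and filterByExpr (minimum count 10), 1 mean per group over all 22 libraries, and Benjamini-Hochberg adjustment over 23011 genes. CPM are counts scaled to the normalised library size. The SE is the log2 change divided by the square root of F. Recovery of known changes was tested on simulated data. The alternatives were RLE size factors, library totals, no filter, DESeq2 1.42.0, a replicate block, a fit of the compared libraries only, and each library left out. The 10 genes and all lists were chosen with earlier results of these data known. Neighbouring genes named are HEMA1, CHLP and the 3 POR genes, the 2 called genes with the smallest adjusted p per list, and the 5 nearest in profile. Besides these are the genes that the text says were named after their values were seen. Sequences and annotation are RefSeq TAIR10.1. White light at 1 h was not analysed here.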

Additional observations from a re-analysis of the deposited data

Results flagged for a closer look

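The response at 6 h differed from the response at 1 h, each against its own dark libraries, for 5 genes in both colours, by the edgeR test of that difference. On the log2 scale the 6 h response exceeded the 1 h response by 1.74 in blue and 2.25 in red light for CHLI1, by 1.73 and 2.23 for CHLI2, by 0.88 and 0.87 for CHLD, by 1.37 and 1.31 for CHLM, and by 2.20 and 3.09 for DVR. The blue and red light differences come from separate libraries. Adjusted p values ran from 0.00374 for CHLI1 in red light to 0.0246 for CHLM in red light. Of these, CHLI1 in both colours and CHLI2 and DVR in red light were called in every fit that left out 1 library.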

How the results depend on the processing

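All 10 genes were called in the mean of the 3 colours under every alternative run. Over the alternatives of the 1 h, 6 h and mean 6 h responses of single genes, 655 log2 changes kept their direction and side of the threshold, 16 lost their call, 6 gained one and 3 turned direction. Those 3 are small values at 1 h of blue light: CHLD at 0.10 without blue 0 h replicate 1 and 0.10 without blue 1 h replicate 2, and CHLM at -0.17 without blue 1 h replicate 1 (and 0.35 without replicate 2).

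Without each library in turn the count of called genes was 2 to 3 at blue 1 h, 2 to 6 at red 1 h, 9 to 10 at blue 6 h, 10 at red 6 h, 7 to 8 at white 6 h, 0 to 1 between red and white light, 2 to 5 for blue 6 h minus 1 h and 3 to 9 for red 6 h minus 1 h. With only the compared libraries in the fit, 1 gene was called at red 1 h (CAO), 3 for blue 6 h minus 1 h (CHLI1, CHLD and CHLM), 3 for red 6 h minus 1 h (CHLI1, CHLI2 and DVR) and 1 between red and white light (CHLD). CHLD was also the 1 gene called there with library totals, with the replicate number as a block and by DESeq2. Fewer libraries leave fewer residual degrees of freedom. The cause of the other changes was not tested.

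Same-numbered libraries of a series deviated together in part. Their correlation exceeded 0.1 in 14 of 15 comparisons (median 0.287), but the lowest was 0.048, short of the requirement that each exceed 0.1, and the labels do not say what a number shares. The numbers were therefore not treated as pairs. Between groups of different series the same correlation ran from -0.061 (blue 1 h and red 1 h) to 0.453 (blue 6 h and red 6 h). Values of this size thus also arose across series. The replicate block moved no count other than that between red and white light. For the ratios, the median over 6 pairs gave -0.32 for CHLI2 to CHLI1, -1.50 for CHLD to CHLH and 0.87 for CAO to CHLG. Each had an exact adjusted p of 0.125, the lowest this version can give, so it cannot decide whether they pass. The signs of the 6 pairs of the replicate block gave exact adjusted p = 0.0417 for these 3 and 0.0938 for CHLI1 to CHLH. Without each library the log2 difference of CHLI1 to CHLH was 0.18 to 0.33. With 2 libraries a group, changes of about the SE at 1 h could not be resolved at this depth of replication.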
